A study of Homo sapiens with 6 samples.

Results

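The miR-15 family is a group of miRNAs that share all or most of a seed, the bases near the 5′ end with which a miRNA pairs to its target mRNAs. Its members were taken as the entries of the authors' table of named miRNAs whose names begin with miR-15a, miR-15b, miR-16, miR-195, miR-424, miR-497 or miR-503. This gave 4 entries of 177 named miRNAs, out of 800 miRNA rows measured: miR-15a-5p, miR-15b-5p, miR-16-5p and miR-503. No entry began with miR-195, miR-424 or miR-497, and those miRNAs were not analysed here.

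The cells were of the RMUG-S-ip1 line, from a human mucinous ovarian cancer, with no other alteration named in the labels. A control group of 3 libraries received a control siRNA, and the siPRKRA group of 3 libraries received an siRNA against PRKRA, both delivered with a lipid reagent and with the medium changed after 6 hours. The product of PRKRA, PACT, binds double-stranded RNA and partners Dicer, the enzyme that cuts the miRNA hairpin. Levels were read with the NanoString nCounter assay, which counts colour-coded reporters without amplification, from 100 ng of total RNA per sample. The labels number the replicates without calling them separate cultures. The p-values may therefore reflect technical spread alone. PRKRA mRNA was not analysed here, so how far it was silenced is unknown.

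miR-15a and miR-16 were among the first miRNAs tied to cancer, through loss of their locus in chronic lymphocytic leukaemia. The family restrains the cell cycle and survival, with BCL2, CCND1 and CCNE1 among its known targets. miR-15a and miR-16 come from a shared primary transcript on chromosome 13, miR-15b and a further copy of miR-16 from an intron of SMC4 on chromosome 3, and miR-503 from the X chromosome next to miR-424.

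The sequences below show what the probes had to tell apart. They are from RefSeq (GRCh38.p14), 5′ to 3′, with the seed (bases 2 to 8 from the 5′ end) in capitals. By name 3 of the 4 members matched that table. The file names miR-503 without an arm, and it is read here as the 5p arm.
miR-15a-5p (chr13:50049167-50049188, minus strand): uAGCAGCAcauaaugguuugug
miR-15b-5p (chr3:160404607-160404628, plus strand): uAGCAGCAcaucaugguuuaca
miR-16-5p (chr3:160404754-160404775, plus strand, and chr13:50049027-50049048, minus strand): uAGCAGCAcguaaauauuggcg
miR-503-5p (chrX:134546371-134546393, minus strand): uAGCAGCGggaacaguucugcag

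Counted from the 5′ end, the seeds of miR-15a-5p, miR-15b-5p and miR-16-5p are identical, and miR-503-5p differs from miR-15a-5p within the seed at its last base (A8G). The AGCAGCA seed is held by 7 of 2370 mature miRNA names in the RefSeq table (0.295%), and the miR-503-5p seed by 1. miR-15a-5p and miR-15b-5p differ at 4 of 22 positions (A12C, G20A, U21C and G22A), all beyond the seed. miR-15a-5p and miR-16-5p differ at 6 positions, and miR-15b-5p and miR-16-5p at 8. Cross-reaction between the probes was not tested.

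miR-16-5p is made from 2 hairpins, shown next with the mature miRNA in capitals because they carry the same mature sequence inside different surroundings.
MIR16-1 (chr13:50048973-50049061, minus strand): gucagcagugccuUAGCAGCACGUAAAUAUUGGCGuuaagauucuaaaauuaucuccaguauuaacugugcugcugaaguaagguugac
MIR16-2 (chr3:160404745-160404825, plus strand): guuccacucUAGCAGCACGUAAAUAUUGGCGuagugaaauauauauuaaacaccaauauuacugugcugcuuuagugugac
The 2 hairpins are identical at 66 of 92 aligned positions. MIR16-1 lies 57 bases from MIR15A within the span of the long non-coding RNA gene DLEU2, and MIR16-2 lies 59 bases from MIR15B within SMC4. The miR-16-5p value is therefore the sum of both loci, whereas miR-15a-5p and miR-15b-5p each report 1 locus.

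The deposited values are counts above a background, multiplied by 1 factor per library, with low values set to a floor. The floor of a library was taken as its factor or 1, whichever was larger, and values at or below it were read as at the floor. Before the factor, the miRNA rows held 51641 to 56193 counts in control libraries and 142682 to 305262 in siPRKRA libraries. The factors were 1.32 to 1.53 in control libraries and 0.231, 1.09 and 0.469 in siPRKRA replicates 1, 2 and 3. siPRKRA replicate 2 stood apart: 62.6% of its miRNA signal was miR-4454. It correlated at 0.833 to 0.884 with the other libraries across the 106 miRNAs tested, against 0.882 to 0.985 among those. The 5 mRNA rows measured beside the miRNAs had a geometric mean value of 4233 in it, against 1445 to 1924 in the other libraries. Of 6 epithelial marker miRNAs 4 passed the filter on low values. miR-200c-3p was at 5391 to 6410 with control siRNA and 4001 to 4835 with siPRKRA. miR-141-3p was at 412 to 522 with control siRNA and 267 to 390 with siPRKRA. Both had every siPRKRA value below every control value, as did 16 of the 106 tested miRNAs (15.1%). Their log2 fold changes, -0.39 ± 0.13 (SE) and -0.46 ± 0.18 (SE), did not pass, each at an adjusted p of 0.265 in limma. The summed epithelial signal, mostly miR-200c-3p and miR-205-5p, was 8540 to 9753 with control siRNA and 7074 to 7810 with siPRKRA. The members did not all lie lower: miR-200b-3p had a mean of 61.5 ± 11.9 (SD, n = 3) with control siRNA and 81.5 ± 27.5 (SD, n = 3) with siPRKRA, at a log2 fold change of 0.37 that did not pass. miR-200a-3p and miR-429 sat at the floor with control siRNA, and in siPRKRA replicates 1, 2 and 3 they had 17.2, 1 and 8.86, and 6.55, 1.09 and 3.23. The values 1 and 1.09 in replicate 2 were both read as at its floor, so low values there do not share a single value. Of 6 blood markers the file names only miR-144-3p, which varied from 6.07 to 151 with control siRNA and from 1.09 to 39.4 with siPRKRA. Endothelial miR-126-3p ranged from 214 to 229 and from 161 to 216, and of 5 fibroblast and smooth muscle markers the file names 0. The part of these in the results was not tested. All libraries came from the 1 cultured line, so these values are not read as shares of cell types. Bulk values do not show whether all cells of the line were alike.

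miR-15b-5p, miR-16-5p and miR-15a-5p were abundant in these cells, and miR-503 was at or near the floor. miR-15b-5p had the highest value of the family in 6 of 6 libraries and ranked between 7 and 9 among the 800 miRNA rows. miR-16-5p ranked between 13 and 18, and miR-15a-5p between 13 and 19. Values of different probes are set side by side here as signal; each probe counts with its own efficiency, so the order need not be one of molecules.

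miR-15b-5p had values of 3305, 2917 and 2845 in control replicates 1, 2 and 3. In siPRKRA replicates 1, 2 and 3 it was at 3127, 3091 and 2735. The groups overlapped, and no library stood apart. Its mean over control libraries was 3022 ± 248 (SD, n = 3), and that over siPRKRA libraries 2984 ± 217 (SD, n = 3). The fitted log2 fold change was -0.02 ± 0.12 (SE), at an adjusted p of 0.949 in limma. The 95% interval, -0.30 to 0.26, spans 0.812-fold to 1.20-fold.

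miR-16-5p had values of 1421, 1631 and 1409 in control libraries. In siPRKRA libraries it was at 1334, 842 and 1355. All 3 siPRKRA values lay below the lowest control value, 2 of them narrowly and replicate 2 by far. The fitted log2 fold change was -0.37 ± 0.21 (SE), at an adjusted p of 0.380 in limma, with a 95% interval of -0.87 to 0.14, so the difference did not pass. Among the 106 tested miRNAs 16 (15.1%) likewise had every siPRKRA value below every control value, and 29 (27.4%) did not overlap in either direction. Without siPRKRA replicate 2 the log2 fold change of miR-16-5p was -0.14 ± 0.08 (SE), at an adjusted p of 0.267 in limma.

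miR-15a-5p, which shares its primary transcript with 1 of the miR-16 copies, had values of 1373, 1362 and 1331 in control libraries. In siPRKRA libraries it was at 1407, 812 and 1392. Replicates 1 and 3 were above all control values and replicate 2 was far below them, so the groups overlapped. The fitted log2 fold change was -0.22 ± 0.23 (SE), at an adjusted p of 0.636 in limma, with a 95% interval of -0.77 to 0.34. Without siPRKRA replicate 2 its sign turned, to 0.05 ± 0.06 (SE), at an adjusted p of 0.588 in limma.

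**Figure D1:**
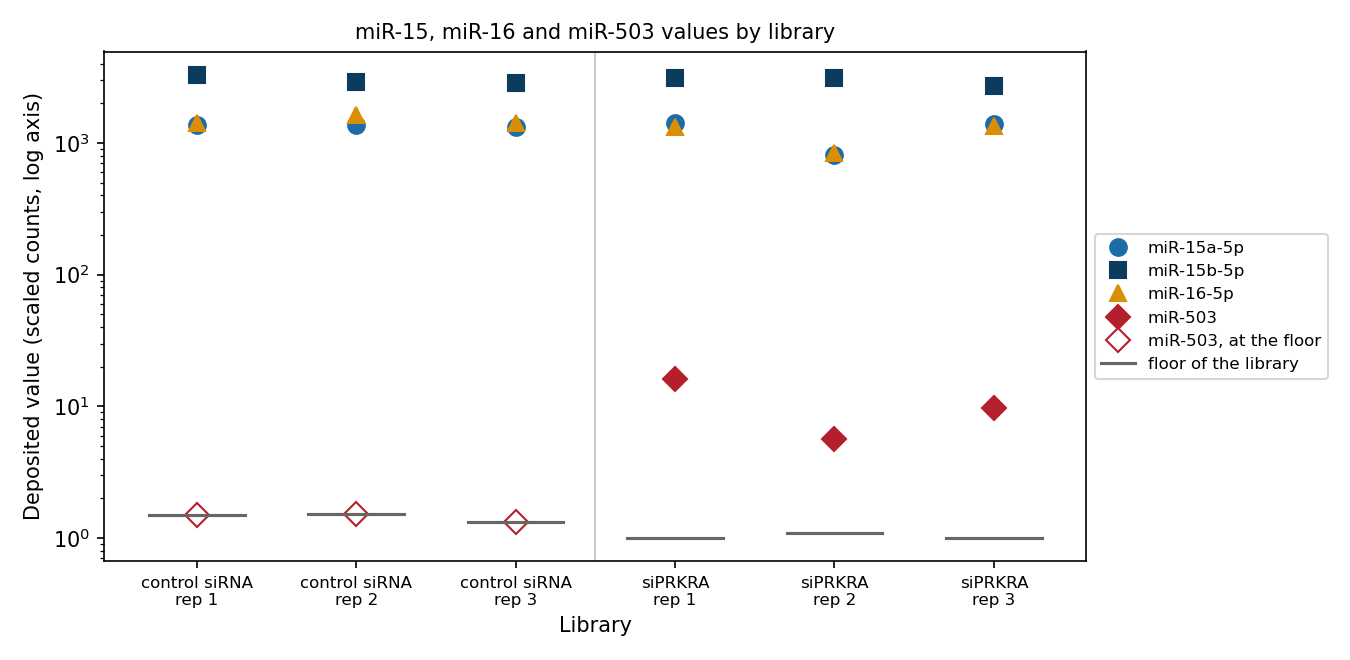
Deposited value (log axis, scaled counts) of each member in each of the 6 libraries, with a grey line at the floor of the library and open symbols for values at that floor. miR-15b-5p stays between 2735 and 3305, miR-15a-5p and miR-16-5p drop to 812 and 842 in siPRKRA replicate 2, and miR-503 leaves the floor in the siPRKRA libraries alone.

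Of the 3 members tested, 0 had a limma adjusted p under 0.05 and 0 an unadjusted p under 0.05. The background was 0 of 106 miRNAs called (0%) at the adjusted and 17 (16%) at the unadjusted threshold, and limma-voom, run on counts before the factor, called 0 too. The members' median log2 fold change was -0.22, against -0.06 over all 106, and -0.04 against -0.07 without siPRKRA replicate 2. All 3 estimates were below 0, as were those of 62 of the 106 (58.5%). Over 17 alternative settings the adjusted p of these 3 members ranged from 0.0819 to 0.962.

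**Figure D2:**
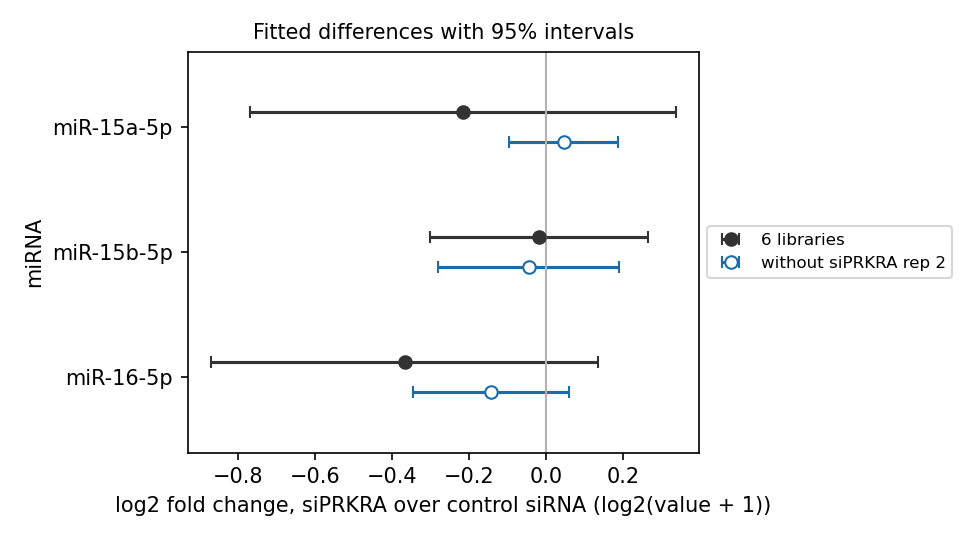
Log2 fold change of siPRKRA over control siRNA for the 3 tested members, with 95% intervals from limma, over all 6 libraries (filled) and without siPRKRA replicate 2 (open). Every interval includes 0, and each member's interval is narrower without that library.

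Within the siPRKRA group, replicate 2 was compared with the mean of the other 2 libraries to see which members it moved. On the log2(value + 1) scale miR-15a-5p was at -0.78 and miR-16-5p at -0.67 there, both below the lower quartile of the tested miRNAs (-0.54). miR-15b-5p was at 0.08, near the middle of the tested miRNAs, whose median was -0.09. Of the 106, 16 lay lower than miR-15a-5p and 18 lower than miR-16-5p. Before the factor the split between members within a library is the same, because 1 factor applies to all of its values. miR-15a-5p had 893 to 1012 counts above background in control libraries and 6094, 748 and 2967 in siPRKRA replicates 1, 2 and 3. miR-16-5p had 950.1 to 1071 and 5776, 776 and 2887. In siPRKRA replicate 2 both thus had fewer counts than in any control library, although that library held more miRNA counts. miR-15b-5p had 1912 to 2210 counts in the control group and 13540, 2848 and 5827 in the siPRKRA group, above the control range in all 3.

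**Figure D3:**
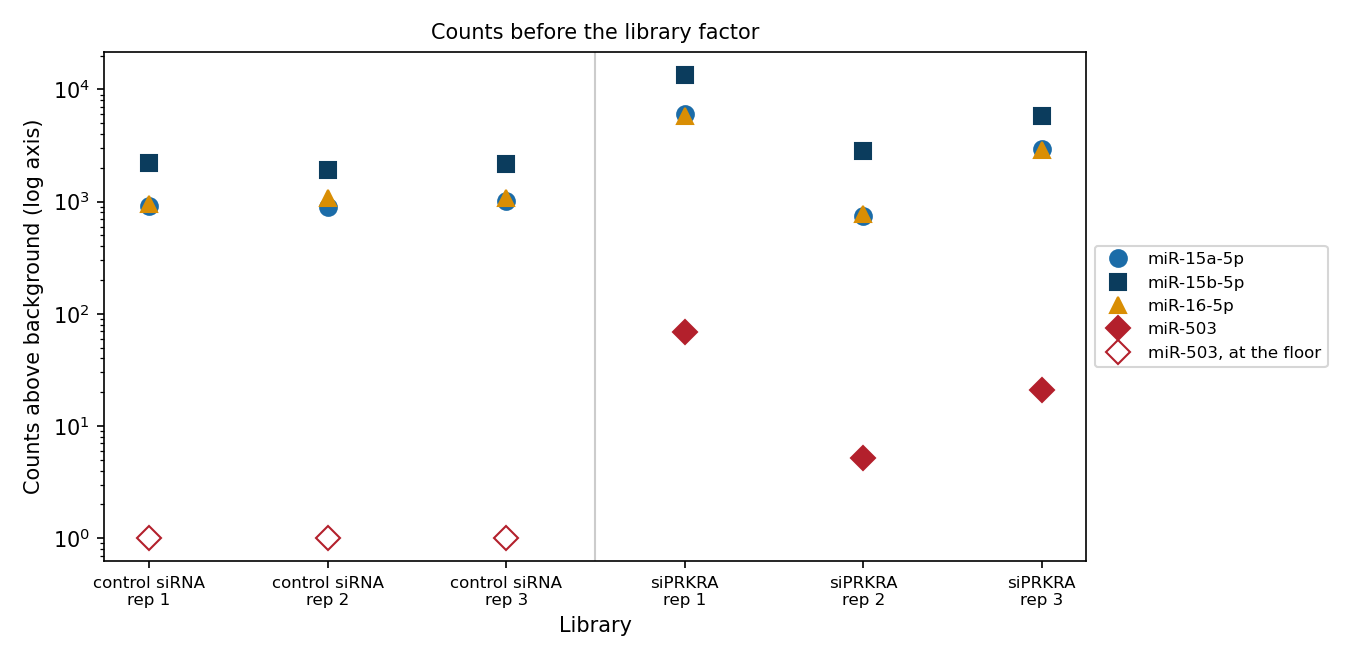
Counts above background (log axis) of each member before the library's factor, with open symbols for values at the floor. miR-15b-5p has more counts in every siPRKRA library than in any control library, while miR-15a-5p and miR-16-5p have 748 and 776 in siPRKRA replicate 2.

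A ratio between 2 members within a library does not depend on that library's factor. It addressed whether the balance of the family shifts when PRKRA is silenced. miR-15a-5p stood close to miR-16-5p throughout, at ratios of 0.966, 0.835 and 0.945 in the control group and 1.06, 0.964 and 1.03 in the siPRKRA group. The lowest siPRKRA ratio fell just inside the control range, in replicate 2. The difference in the mean log2 ratio was 0.15 (exact two-sided permutation p = 0.2, adjusted over the 3 ratios 0.45). Without siPRKRA replicate 2 it was 0.19 (exact permutation p = 0.2). The groups then no longer overlapped, which follows from leaving out the only siPRKRA library inside the control range.

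miR-15b-5p over miR-16-5p, the pair encoded in SMC4 (miR-16-5p also on chromosome 13), gave ratios of 2.33, 1.79 and 2.02 in the control group and 2.34, 3.67 and 2.02 in the siPRKRA group. Only siPRKRA replicate 2 lay clearly apart. The difference in the mean log2 ratio was 0.35 (exact two-sided permutation p = 0.3, adjusted 0.45) and 0.10 without that library (exact permutation p = 0.6). miR-15a-5p over miR-15b-5p gave 0.415, 0.467 and 0.468 in the control group and 0.450, 0.263 and 0.509 in the siPRKRA group. That difference in the mean log2 ratio was -0.20 (exact two-sided permutation p = 0.8, adjusted 0.8), and 0.09 without siPRKRA replicate 2 (exact permutation p = 0.6). With 3 against 3 samples this test cannot give a p below 0.1, and with 2 against 3 not below 0.2.

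**Figure D4:**
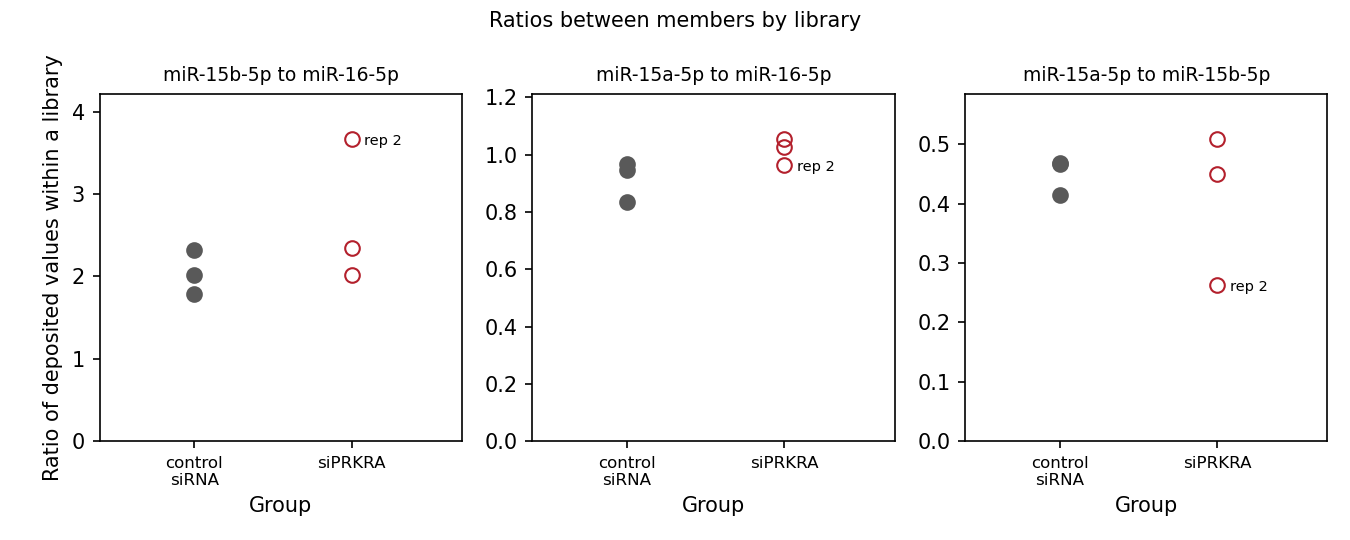
Ratio of the deposited values of 2 members within each library, for control siRNA (filled) and siPRKRA (open), 3 libraries each. The miR-15a-5p to miR-16-5p ratio stays between 0.835 and 1.06, while both ratios with miR-15b-5p stand apart in siPRKRA replicate 2.

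Together the 4 members made up 7.58%, 7.41% and 7.47% of the miRNA signal in control libraries. In siPRKRA replicates 1, 2 and 3 they made up 8.27%, 1.91% and 8.12%. Replicates 1 and 3 were above the control range and replicate 2 far below it. The difference between the group means was -1.38 percentage points (exact two-sided permutation p = 1). With miR-4454 and miR-720 left out of the total, replicate 2 was at 6.86% against 8.62% and 8.60% in the other siPRKRA libraries and 7.95% to 8.09% with control siRNA, and the difference was 0.028 percentage points (exact permutation p = 1). Within the family, miR-15b-5p held 49.3% to 54.2% of the sum in control libraries and 53.1%, 65.1% and 49.8% in siPRKRA replicates 1, 2 and 3.

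miR-503, the member with the differing seed base, sat at the floor in each of the 3 control libraries, at 1.5, 1.53 and 1.32. In siPRKRA replicates 1, 2 and 3 it had values of 16.02, 5.62 and 9.8. All 3 siPRKRA values lay above all control values, with the lowest in replicate 2. No value reached 30, so miR-503 was outside the 106 tested miRNAs. Its siPRKRA values rested on 69.4, 5.18 and 20.9 counts above background.

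One count above background was worth 1.32 to 1.53 units of value in control libraries, and 0.231, 1.09 and 0.469 units in siPRKRA replicates 1, 2 and 3. Without miR-4454 and miR-720 the libraries held 47237 to 52667 counts in the control group and 292823, 63160 and 134718 in the siPRKRA group. The counts of miR-503 and these totals had the same order among the siPRKRA libraries, and the part of the totals in the result was not tested. The number of counts subtracted as background is not given in the sources used here. A control level below it would be listed at the floor too, so no fold is given.

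Of the 177 named miRNAs, 14 (7.91%) shared this pattern, listed at the floor in every control library but above it in every siPRKRA library. That was 14 of the 44 named miRNAs with all control libraries at the floor (31.8%). Over all 800 miRNA rows, named or not, it was the same 14, of 664 with all control libraries at the floor (2.11%). None of the 177 was at the floor in all siPRKRA libraries, so the named list could show the pattern in 1 direction only. Of the 800 rows 603 were, and 0 of these were above the floor in all control libraries. By its siPRKRA mean of 10.5 ± 5.23 (SD, n = 3) miR-503 was number 8 of these 14, whose siPRKRA means ran from 6.87 to 28.7. The order of its counts, highest in siPRKRA replicate 1 and lowest in replicate 2, was that of 9 of these 14.

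miR-450a-5p, whose hairpins lie 5720 and 5896 bases from that of miR-503 on the X chromosome, was the only 1 of 5 miRNAs listed as neighbours of miR-424 and miR-503 that the file names. It had values of 55.4, 55.1 and 61.0 in the control group and 83.7, 53.4 and 48.3 in the siPRKRA group. Its groups overlapped (log2 fold change 0.07 ± 0.26, SE, at an adjusted p of 0.926 in limma), and all its values were above the filter of 30 that miR-503 did not reach.

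In the authors' deposited table miR-503 had a p of 0.0225 and an adjusted p of 0.332, where 21 of 177 miRNAs (11.9%) had a p under 0.05. The fold change of 6.12 listed in that table is the ratio of the log2 levels 3.26 and 0.53, not of linear levels. The level of 0.53 is the mean of control values that were all at the floor. The authors' deposited table gave adjusted p values of 0.863 for miR-15a-5p, 0.944 for miR-15b-5p and 0.567 for miR-16-5p. Of its 177 miRNAs 2 (1.13%) had an adjusted p under 0.05, none of them a member. For miR-15a-5p the authors' deposited table names a rank test, and the levels listed match the group medians rather than the means. The listed difference is therefore above 0 (log2 levels 10.41 and 10.44), where the fitted difference of means is below 0.

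The tested miRNAs most like each member were sought by the root mean square difference of centred log2(value + 1) over the 6 libraries, where a smaller number means a closer pattern. For miR-16-5p the closest of 105 was miR-107, at 0.063, followed by miR-141-3p at 0.095, and miR-15a-5p ranked 4 at 0.107. For miR-15a-5p the closest were miR-29c-3p at 0.039 and miR-29b-3p at 0.097, with miR-16-5p next at 0.107. For miR-15b-5p they were let-7g-5p at 0.063 and miR-148b-3p at 0.076, while miR-15a-5p ranked 52 of 105 at 0.314 and miR-16-5p 59 at 0.331. The median over all others was 0.315 to 0.401.

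The values show what these numbers rest on. miR-107 had 269, 287 and 232 in the control group and 228, 149 and 245 in the siPRKRA group. miR-29c-3p had 98.8, 94.8 and 88.6 in the control group and 96.6, 57.7 and 94.8 in the siPRKRA group. Both were lowest in siPRKRA replicate 2, as miR-15a-5p and miR-16-5p were. let-7g-5p, close to miR-15b-5p, had 2224, 2182 and 2043 in the control group and 2064, 2181 and 1835 in the siPRKRA group, with no drop in that library. The libraries share their scaling, and the measure describes these 6 libraries alone.

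miR-107 is also the only one of 7 listed seed relatives outside the members that the file names. It is shown because its sequence holds AGCAGCA at bases 1 to 7, 1 base off the family's position, so that its own seed, in capitals, is a different one.
miR-107 (chr10:89592756-89592778, minus strand): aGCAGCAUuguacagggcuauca
Its fitted log2 fold change was -0.37 ± 0.22 (SE), at an adjusted p of 0.410 in limma. The groups overlapped, with siPRKRA replicate 3 inside the control range.

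Other miRNAs that restrain the cell cycle or act as tumour suppressors were listed for comparison, and 4 of 8 were named and tested. None passed, 0 higher and 0 lower, and their median log2 fold change was -0.14, against -0.06 over all 106. miR-34a-5p, which p53 induces, had a mean of 293 ± 47.4 (SD, n = 3) with control siRNA and 253 ± 35.2 (SD, n = 3) with siPRKRA. miR-26b-5p had means of 167 ± 24.0 (SD, n = 3) and 136 ± 46.2 (SD, n = 3). miR-26a-5p and let-7a-5p had log2 fold changes of -0.08 ± 0.16 (SE) and -0.01 ± 0.26 (SE). Of the 8 passenger arms of the family's hairpins, the strands usually discarded, the file names 0, so no arm could be set against its partner.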

How the data were processed

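The members, lists and tests were chosen with earlier results of these data known. The authors deposited a signal per row for 822 rows (800 miRNA rows analysed here) and log2 of the same signal, matching within 0.000234. A further deposited table gives a p-value, an adjusted p-value, log2 levels and a fold change for 177 named miRNAs. The authors' software, background rule and scaling probes: not given in the sources used here. Each library's factor was recovered as the number that makes its values whole counts above a common fraction. 100% of the values checked were whole within 0.1.

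Differences were fitted with limma 3.58.1 (R 4.3.3, eBayes with trend) on log2(value + 1), without covariates. The 106 miRNAs that reached 30 in 3 or more of the 6 samples entered. A fold change on this scale understates that of low values. p-values are two-sided and Benjamini-Hochberg adjusted over all 106, with 0.05 as the threshold. Ratios and shares were compared by exact permutation tests. The fit was tested on simulated data with 1 spread, the median of the control libraries, for all miRNAs in both groups. That simulation does not cover the wider spread of miR-15a-5p and miR-16-5p in siPRKRA libraries. Named miRNAs are all members, the 2 non-members closest to each tested member, and the listed relatives. Other tools were scipy 1.17.1, numpy 2.4.6, pandas 2.3.3, matplotlib 3.10.9 and Python 3.11.15. Depth is the counts above background. Counting intervals are not given because the subtracted background is unknown.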

Additional observations from a re-analysis of the deposited data

How the results depend on the processing

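None of the 3 members tested (miR-15a-5p, miR-15b-5p and miR-16-5p) passed 0.05 over all tested miRNAs in any of 17 alternative settings, and the ratio and share tests could not, given their smallest possible p. The sign of a member's estimate was less stable. Scaling by the 5 graded control rows, with a median over the 106 miRNAs of 1.61, gave log2 fold changes of 1.45 for miR-15a-5p, 1.65 for miR-15b-5p and 1.30 for miR-16-5p, which relative to that median were -0.15, 0.04 and -0.31. miR-15b-5p also turned to 0.031 with median-of-ratios scaling and 0.11 with the total without miR-4454 and miR-720. The 5 mRNA rows moved the median to -0.62, and limma-voom to -0.50. With 1 library left out, miR-15a-5p ranged from -0.35 to 0.046, miR-15b-5p from -0.060 to 0.048 (above 0 without control siRNA replicate 1, at 0.048, or siPRKRA replicate 3, at 0.044) and miR-16-5p from -0.48 to -0.14. The log2 ratio of miR-15a-5p to miR-15b-5p ranged from -0.39 to 0.091, turning without siPRKRA replicate 2. The family's share ranged from -2.47 to 0.71 percentage points, turning without that library and, at 0.028, with miR-4454 and miR-720 out of the total.

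The count of 0 called miRNAs became 635 of 800 with no filter (602 of these never left the floor), 22 with the graded control rows, 1 with the 5 mRNA rows, 1 without the trend, and 0 to 4 with a library left out (2 without control siRNA replicate 3, 4 without siPRKRA replicate 2). With no filter 611 were called lower and 24 higher with siPRKRA. The floors were 1.32 to 1.53 in control libraries and 1, 1.09 and 1 in siPRKRA replicates 1, 2 and 3. The 602 rows hold floor values alone, so no miRNA level is read from them. The cause of the other changes was not tested. The settings that let miR-503 in gave it limma adjusted p values of 0.116, over the 198 miRNAs above the floor in any library, and 0.00107, with no filter. Both set it against control values at the floor, where the spread is only that of the library floors. Neither p value therefore measures a difference, and neither fit gives a size.

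The replicate number as a block changed no call, with 0 miRNAs called and adjusted p values of 0.616, 0.962 and 0.452 for miR-15a-5p, miR-15b-5p and miR-16-5p. Deviations of same-numbered libraries correlated at 0.17, -0.088 and -0.073, and the numbers were not taken to pair the samples. miR-503 in control libraries is limited by the floor.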
